A study of Mus musculus with 18 samples.

Results

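The genes described here are the markers of mast cells together with the receptor Kit and its ligand. They are 10 of the 51290 genes in a table of RNA sequencing counts from mouse peripheral nerve tumours and normal nerve, and they were chosen by symbol: Kit, Kitl, Cpa3, Mcpt4, Cma1, Tpsb2, Tpsab1, Fcer1a, Ms4a2 and Hdc. Malignant peripheral nerve sheath tumours (MPNST, 6 libraries) carried floxed alleles of Nf1 and Arf together with Postn-driven Cre recombinase, and their site in the body is not given. Plexiform neurofibromas (6 libraries), which are benign nerve tumours, were trigeminal nerves with the same Cre and floxed Nf1 alone. Normal nerves (6 libraries) were trigeminal tissue that lacked Cre but carried floxed Nf1, an allele that all 3 groups share. The Postn promoter drives Cre in cells of the Schwann lineage and in other mesenchymal cells, so recombination is not limited to 1 cell type. The labels give no age or strain, and they mark the neurofibroma and nerve libraries, but not the MPNST libraries, as taken from an earlier deposit.

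Mast cells are tissue-resident granulocytes that depend on the receptor tyrosine kinase Kit and on its ligand, stem cell factor, the product of Kitl. Their granules hold proteases and histamine, and cross-linking of IgE on the receptor FcεRI releases them. Neurofibromin, the product of Nf1, is a negative regulator of RAS, which signals downstream of Kit, and mast cells are a known component of human and mouse neurofibromas. Kit is not restricted to mast cells: melanocytes and some sensory neurons also express it, whereas Cpa3, Mcpt4, Cma1 and the tryptases are granule products of mast cells.

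The promoters of 8 of the 10 genes, all but Tpsb2 and Tpsab1, were matched to RefSeq sequences of the mouse build GRCm38.p6. Those of 3 granule protease genes that varied together across libraries follow with that of Kit, which did not vary with them. Each runs 250 bases up to the annotated start, on the strand of the gene, with matches to the GATA motif in capitals. The motif searched was GATA preceded by A or T and followed by A or G, on either strand, which is the core bound by GATA factors such as GATA2.

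Cpa3: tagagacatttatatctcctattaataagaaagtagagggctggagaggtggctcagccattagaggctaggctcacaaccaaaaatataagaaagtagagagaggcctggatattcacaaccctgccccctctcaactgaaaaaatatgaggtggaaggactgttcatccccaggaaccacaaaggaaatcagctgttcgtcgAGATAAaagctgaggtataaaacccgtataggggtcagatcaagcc

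Mcpt4: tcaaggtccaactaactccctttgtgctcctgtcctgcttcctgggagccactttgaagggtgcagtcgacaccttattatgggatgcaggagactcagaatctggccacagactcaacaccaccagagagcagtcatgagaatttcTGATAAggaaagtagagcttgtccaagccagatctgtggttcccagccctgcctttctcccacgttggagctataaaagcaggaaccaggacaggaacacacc

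Cma1: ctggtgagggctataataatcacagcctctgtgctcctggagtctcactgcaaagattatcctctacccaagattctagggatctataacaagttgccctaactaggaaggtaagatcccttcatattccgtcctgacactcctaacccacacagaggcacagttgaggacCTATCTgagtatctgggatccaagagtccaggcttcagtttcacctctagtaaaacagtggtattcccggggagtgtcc

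Kit: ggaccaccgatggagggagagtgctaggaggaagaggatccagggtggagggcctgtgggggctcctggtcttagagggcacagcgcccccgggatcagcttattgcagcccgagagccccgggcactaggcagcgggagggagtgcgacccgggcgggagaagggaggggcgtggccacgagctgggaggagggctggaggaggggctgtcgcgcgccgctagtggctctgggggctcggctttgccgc

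The Cpa3 promoter lies at chr3:20242182-20242431 on the minus strand, and its motif, AGATAA, stands 46 to 41 bases before the start. The Mcpt4 promoter lies at chr14:56062311-56062560 (minus strand) with TGATAA at 103 to 98 bases. The Cma1 promoter lies at chr14:55944676-55944925 (minus strand) with CTATCT, a match on the opposite strand, at 79 to 74 bases. The Kit promoter printed, the first of 2 listed for that gene, lies at chr5:75574737-75574986 (plus strand) and holds no match, nor does that of Kitl. The other Kit entry was not searched. Fcer1a and Hdc had 1 match each and Ms4a2 had 3, so 6 of the 8 matched promoters held the motif, against 26.5% of 32851 mouse promoters of the same length. An E-box (CACGTG, or the variants CATGTG and CACATG) was found in 1 of the 8, Fcer1a, against 17.6% of all promoters. These matches describe letters in the window and do not show binding.

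Total estimated counts lay between 13885900 and 23652617 per MPNST library, between 15308065 and 20056349 per neurofibroma library and between 14304163 and 20335502 per nerve library. Levels are given as CPM, counts scaled to the library total, after TMM scaling, a correction for libraries in which a few genes take much of the total. Some libraries stood apart from their labels. Salivary gland markers took 28.0% of all counts in MPNST library 2, whose TMM factor was 0.406, and skeletal muscle markers took 5.10% in MPNST library 3. Skeletal muscle markers also summed to 1680 CPM in neurofibroma library 1 and 415 CPM in nerve library 3, against at most 7.95 CPM in the other neurofibroma and 37.5 CPM in the other nerve libraries. MPNST library 6 held a summed 4001 CPM of sympathoadrenal markers, against at most 2.12 CPM in the other MPNST libraries, and 3380 CPM of pancreatic acinar markers. Markers of sensory neurons summed to 3727 to 5457 CPM in neurofibroma and 2513 to 5945 CPM in nerve, and were thus detected in every trigeminal library. In MPNST they summed to 6.04 to 52.4 CPM in libraries 1 to 5 and to 1857 CPM in library 6. Results on the 10 genes are therefore also given without MPNST libraries 2 and 6. Library 3 was kept in those fits. Schwann cell markers summed to 47.9 to 1418 CPM in MPNST, 9156 to 16399 CPM in neurofibroma and 4183 to 11000 CPM in nerve. Nf1, counted over the whole gene, stood at 41.3 to 111 CPM in MPNST, 64.5 to 86.5 CPM in neurofibroma and 79.0 to 158 CPM in nerve. MPNST came from the newer deposit and the other groups from the earlier one, so differences between the deposits and those between MPNST and the other groups cannot be told apart.

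**Figure D1:**
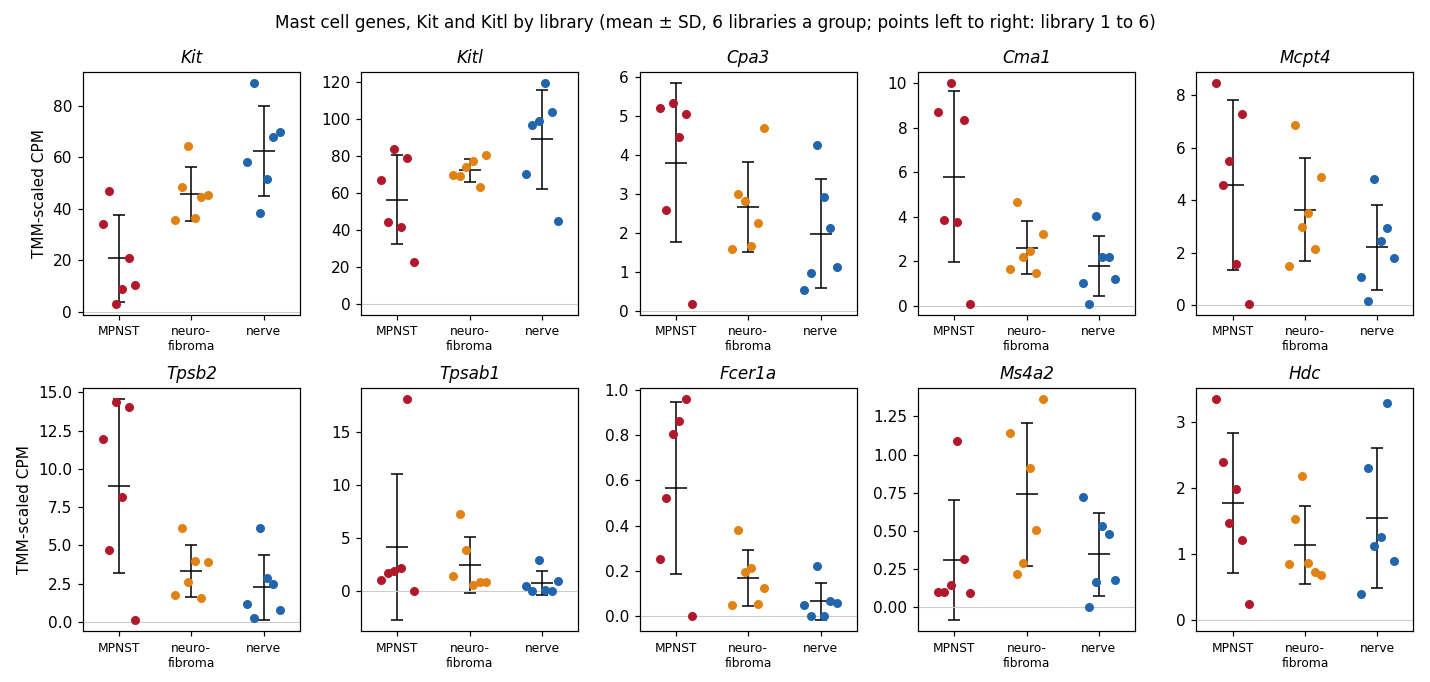
Level of each of the 10 genes in TMM-scaled CPM (vertical axes, linear) for MPNST, neurofibroma and nerve; each point is 1 library, in the order 1 to 6 from left to right, and bars are the mean ± SD of 6 libraries. Kit lies lowest in MPNST, while Cpa3, Cma1 and Tpsb2 reach their highest values in MPNST, where library 6 is near 0.

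Kit, the receptor, was called lower in MPNST than in normal nerve with all libraries, but the call was lost in 12 of 25 alternatives. Kit had a lowest, median and highest level of 3.15, 15.6 and 47.0 CPM in MPNST, of 35.5, 44.8 and 64.2 CPM in neurofibroma and of 38.5, 63.0 and 88.8 CPM in nerve. Of the MPNST libraries, 5 of 6 lay below every neurofibroma and every nerve library; the exception was library 2 at 47.0 CPM. Means were 20.8 ± 16.9 CPM in MPNST, 45.7 ± 10.4 CPM in neurofibroma and 62.4 ± 17.3 CPM in nerve (SD, n = 6 each). Kit fell in MPNST against nerve by 1.45 on the log2 scale (SE 0.55, 95% interval -2.63 to -0.26, edgeR adjusted p = 0.0467). After TMM scaling the MPNST and nerve libraries overlapped, and 14.8% of 16384 genes separated downward without overlap. On plain CPM, without TMM scaling, Kit did not overlap (at most 38.5 CPM in MPNST, at least 40.7 CPM in nerve). That separation depends on library 2, which stood at 19.1 CPM on plain CPM and at 47.0 CPM after TMM scaling. Kit was the 1 gene called among the 8 that passed the low-count filter in MPNST against nerve. In that comparison 46% of 16384 genes were called and 18.4% were lower.

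The neighbouring groups did not differ past the threshold. Kit differed by -0.98 between MPNST and neurofibroma (SE 0.53, 95% interval -2.14 to 0.18, edgeR adjusted p = 0.157) and by -0.46 between neurofibroma and nerve (SE 0.20, 95% interval -0.88 to -0.04, adjusted p = 0.129). None of the 8 genes tested was called in MPNST against neurofibroma, where 42% of 16537 genes were; limma-voom called 3 (Kit, Cma1 and Tpsb2), with 58.9% of all genes. The call of Kit in MPNST against nerve was lost in 8 of 12 fits with 1 library left out (MPNST 4, 5 or 6, nerve 1, 2, 4, 5 or 6). In those 8 the edgeR adjusted p was 0.0612 to 0.0877. The log2 change of Kit ran from -1.95 to -1.28 over all 12 omissions. Without MPNST libraries 2 and 6 the difference was -1.81 against nerve (adjusted p = 0.0133) and -1.37 against neurofibroma (adjusted p = 0.0438), so the second comparison then passed the threshold. The table's columns fall into 2 runs of rising sample number, whose meaning is not given; within them the difference against nerve was -0.97 (adjusted p = 0.286) and -2.40 (adjusted p = 0.0838), with 3 libraries a group.

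Markers of other cell types that use Kit also differed in this comparison. All 10 sensory neuron markers were tested and 7 fell in MPNST against nerve (median log2 change -6.01), among them Calca, the gene of calcitonin gene-related peptide (-8.50, SE 0.55, edgeR adjusted p = 1.73e-06). The other 3 did not pass the threshold with all libraries; all 10 fell without MPNST libraries 2 and 6. The genes on the melanocyte list summed to 14.4 to 233 CPM in MPNST, 283 to 437 CPM in neurofibroma and 165 to 281 CPM in nerve. That list includes Ednrb and Sox10, and Sox10 is also on the Schwann cell list, so the sum is not specific to melanocytes. Of the listed genes, 3 of 10 were tested against nerve and 2 fell. Tyrp1, a melanin-synthesis enzyme, was listed at 0 in 5 of 6 MPNST libraries and reached 0.0731 CPM in the other, against 4.95 to 11.4 CPM in nerve (log2 change -8.67, SE 0.72, adjusted p = 7.9e-06). Ednrb, a receptor of melanocyte and Schwann cell precursors, fell by 2.46 (SE 0.39, adjusted p = 0.000488). Their part in the level of Kit was not tested. In bulk tissue, fewer cells of a type and less RNA per cell cannot be told apart.

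Kitl, the gene of stem cell factor, was measured in every library and did not differ past the threshold in any of the 3 comparisons. Its lowest, median and highest levels were 22.8, 55.8 and 84.1 CPM in MPNST, 63.1, 71.9 and 80.6 CPM in neurofibroma and 45.1, 97.8 and 119.7 CPM in nerve. The neurofibroma libraries sat close together within the wider nerve range, while MPNST libraries 2, 4 and 6 lay below all of them and library 3 above. The log2 change was -0.53 for MPNST against nerve (SE 0.34, 95% interval -1.26 to 0.20, edgeR adjusted p = 0.212), -0.21 for MPNST against neurofibroma (SE 0.29, 95% interval -0.84 to 0.41, adjusted p = 0.568) and -0.31 for neurofibroma against nerve (SE 0.18, 95% interval -0.69 to 0.08, adjusted p = 0.26). Nerve library 6 was the lowest nerve library at 45.1 CPM; without it Kitl was called lower in neurofibroma than in nerve (-0.43, adjusted p = 0.0209).

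The granule proteases had their highest levels in MPNST, but 1 MPNST library held almost none and no protease passed the threshold with all libraries. Cpa3, mast cell carboxypeptidase A, had a lowest, median and highest level of 0.190, 4.76 and 5.34 CPM in MPNST, 1.59, 2.54 and 4.71 CPM in neurofibroma and 0.532, 1.63 and 4.26 CPM in nerve. Of the 6 MPNST libraries, 4 lay above every nerve library and 3 above every neurofibroma library; library 6 lay below all of both. The log2 change was 0.65 against neurofibroma (SE 0.58, 95% interval -0.62 to 1.92, edgeR adjusted p = 0.389) and 1.06 against nerve (SE 0.67, 95% interval -0.40 to 2.53, adjusted p = 0.213).

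Cma1 and Mcpt4 encode chymases, the chymotrypsin-like proteases of connective tissue mast cells. Cma1 had a lowest, median and highest level of 0.0948, 6.11 and 10.0 CPM in MPNST, 1.47, 2.33 and 4.68 CPM in neurofibroma and 0.0983, 1.69 and 4.04 CPM in nerve. MPNST libraries 1, 3 and 5 lay above every other group's library, at 8.72, 10.0 and 8.37 CPM. Its log2 change was 1.29 against neurofibroma (SE 0.71, edgeR adjusted p = 0.157) and 1.83 against nerve (SE 0.87, adjusted p = 0.101). Mcpt4 reached 0.0474, 5.03 and 8.47 CPM as lowest, median and highest in MPNST, 1.49, 3.23 and 6.86 CPM in neurofibroma and 0.147, 2.12 and 4.82 CPM in nerve. The groups overlapped broadly, with log2 changes of 0.47 against neurofibroma (SE 0.76, adjusted p = 0.64) and 1.18 against nerve (SE 0.88, adjusted p = 0.286). The 2 chymase genes lie on 1 chromosome with 4 protein-coding genes between them (Cma2, Mcpt1, Mcpt2 and Mcpt9). Of the 31-base words in their transcripts (GENCODE vM21), 12.2% of Mcpt4 and 10.6% of Cma1 also occur in other genes, mainly Cma2 and Gm48934, so counts of both are less certain than those of Cpa3, which shares none.

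Tpsb2 encodes the tryptase Mcpt6, a trypsin-like granule protease. Its lowest, median and highest levels were 0.142, 10.0 and 14.3 CPM in MPNST, 1.58, 3.26 and 6.15 CPM in neurofibroma and 0.246, 1.81 and 6.11 CPM in nerve. MPNST libraries 1, 3, 4 and 5 lay above every library of both other groups, at 8.18 to 14.3 CPM; library 2 stood at 4.68 CPM and library 6 below all others. The log2 change was 1.55 against neurofibroma (SE 0.72, 95% interval -0.02 to 3.13, edgeR adjusted p = 0.103) and 2.10 against nerve (SE 0.88, 95% interval 0.18 to 4.02, adjusted p = 0.0691). Other tools called it against nerve: DESeq2 gave 1.96 (adjusted p = 0.0443), where 43% of all genes were called, and limma-voom 2.42 (adjusted p = 0.0141), where 63.4% were.

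**Figure D2:**
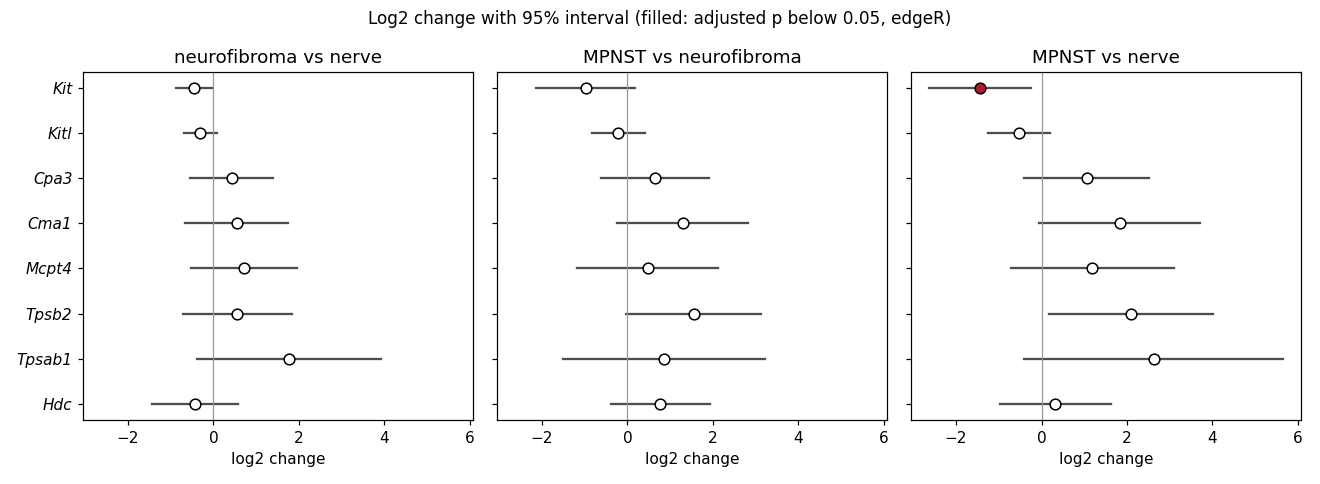
Log2 change (horizontal axis) with its 95% interval for the 8 genes that passed the low-count filter, in neurofibroma vs nerve, MPNST vs neurofibroma and MPNST vs nerve; filled points have an edgeR adjusted p below 0.05. Kit in MPNST vs nerve, at -1.45, is the only filled point.

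Summed over Cpa3, Mcpt4, Cma1 and Tpsb2, the level was 34.3, 15.7, 35.2, 17.98, 34.8 and 0.474 CPM in MPNST libraries 1 to 6, 6.51 to 20.7 CPM in neurofibroma and 1.47 to 19.2 CPM in nerve. In raw terms, MPNST library 6 held between 0.982 and 3.87 estimated counts of each of these 4 genes, out of 19086040. That library is the one with sympathoadrenal, pancreatic acinar and sensory neuron transcripts; whether these relate to its low protease level was not tested. Without library 6, Cpa3 (log2 change 0.90, edgeR adjusted p = 0.0345), Cma1 (1.55, 0.00556), Tpsb2 (1.81, 0.00291) and Hdc (1.01, 0.0483) were called higher in MPNST than in neurofibroma, where 54.3% of genes were called in that setting. Against nerve the same omission gave calls for Cpa3 (1.31, 0.036), Cma1 (2.09, 0.0165) and Tpsb2 (2.35, 0.00985), and the call of Kit was lost; 56.6% of genes were called there.

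Without both libraries 2 and 6, MPNST against neurofibroma gave 0.98 for Cpa3 (edgeR adjusted p = 0.0217), 1.64 for Cma1 (0.00427) and 1.93 for Tpsb2 (0.00152), while Mcpt4 remained short of the threshold (0.72, 0.247). Against nerve the values were 1.45 for Cpa3 (0.0296), 2.24 for Cma1 (0.0156), 2.54 for Tpsb2 (0.00802) and 1.49 for Mcpt4 (0.0945). In these 2 settings 59.2% and 60.7% of all genes tested were called, so the share of called members, 4 of 9 and 4 of 8 with Kit included, was below that of all genes. Library 3, kept in these fits, held the highest Cpa3, Cma1 and Tpsb2 and the lowest Kit of MPNST. Without it as well, 3 of 9 rose and 1 fell against neurofibroma, and 2 of 8 rose and 1 fell against nerve. There 62.8% and 62.4% of all genes were called. Within the 2 runs of columns, Tpsb2 differed by 1.35 and 1.76 from neurofibroma and by 1.79 and 2.30 from nerve (lowest adjusted p = 0.145).

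**Figure D3:**
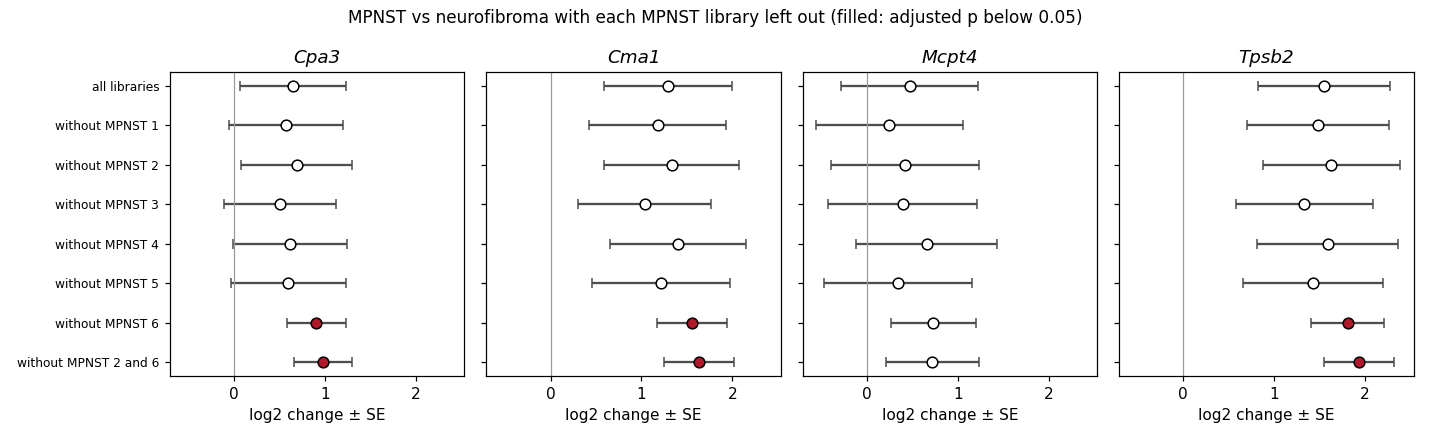
Log2 change ± SE of 4 granule protease genes between MPNST and neurofibroma (horizontal axes) with all libraries, with each MPNST library left out in turn, and without libraries 2 and 6; filled points have an edgeR adjusted p below 0.05. The 3 filled genes, Cpa3, Cma1 and Tpsb2, pass the threshold in the settings that omit library 6, in which Mcpt4 does not.

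Between neurofibroma and nerve, 0 of the 8 genes tested were called by edgeR, against 13.9% of 16464 genes; 1 of the 8, Kit, had an unadjusted p below 0.05 (0.0357), and DESeq2 and limma-voom also called none, against 19.4% and 24.5% of all genes. The log2 changes of the proteases were all above 0, at 0.42 for Cpa3 (SE 0.45, 95% interval -0.56 to 1.41), 0.72 for Mcpt4 (SE 0.57), 0.55 for Cma1 (SE 0.56) and 0.56 for Tpsb2 (SE 0.59), with adjusted p from 0.412 to 0.553. The interval for Cpa3 thus reaches from -0.56 to 1.41 on the log2 scale. Nerve libraries differed among themselves more than neurofibroma libraries did: the 4 proteases summed to 19.2 CPM in nerve library 3 and to 1.47 CPM in nerve library 2.

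The second tryptase gene, Tpsab1, which encodes Mcpt7, did not follow Tpsb2. It had a lowest, median and highest level of 0, 1.78 and 18.1 CPM in MPNST, 0.591, 1.14 and 7.29 CPM in neurofibroma and 0, 0.251 and 2.91 CPM in nerve. MPNST library 5 alone stood at 18.1 CPM, and the next MPNST library at 2.18 CPM. Tpsab1 was at 0 in MPNST library 6 and nerve libraries 2 and 5, where 3 counts, the number a count of 0 allows, would be 0.142, 0.147 and 0.205 CPM. The ratio of its estimated counts to those of Tpsb2, not corrected for length, was 0.0838 to 1.29 in MPNST libraries 1 to 5, 0.153 to 1.45 in neurofibroma and 0 to 1.16 in nerve. The ratio therefore varied over a similar span in all 3 groups. Between MPNST libraries 1 and 5, which held close to equal counts of Tpsb2 (235 and 220), counts of Tpsab1 were 19.7 and 283.9. Log2 changes were 1.77 for neurofibroma against nerve (SE 0.99, edgeR adjusted p = 0.243), 0.86 for MPNST against neurofibroma (SE 1.09, adjusted p = 0.545) and 2.62 for MPNST against nerve (SE 1.397, adjusted p = 0.141). Without MPNST library 5 the second of these was -0.68. The transcripts of the 2 genes share 9 of their 31-base words, 0.557% of those of Tpsb2.

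**Figure D4:**
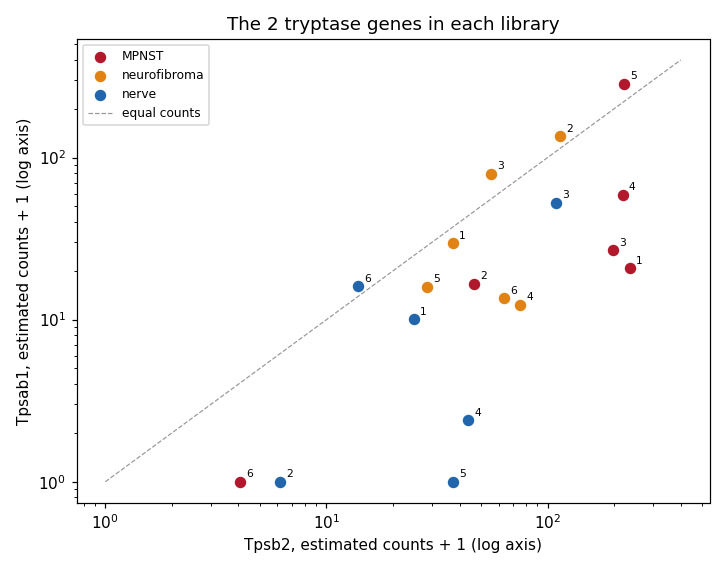
Estimated counts + 1 of Tpsab1 (vertical, log axis) against Tpsb2 (horizontal, log axis) in each library, coloured by MPNST, neurofibroma and nerve and numbered by library; the dashed line marks equal counts. Libraries with similar counts of Tpsb2 differ widely in Tpsab1, from 19.7 counts in MPNST library 1 to 283.9 in MPNST library 5.

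The IgE receptor genes were close to the limit of detection. Fcer1a, the IgE-binding α chain, held 0 to 23.0 estimated counts in MPNST, 0.917 to 7.26 in neurofibroma and 0 to 3.64 in nerve. Ms4a2, the β chain, held 0.775 to 29.3 counts in MPNST, 3.91 to 23.3 in neurofibroma and 0 to 14.9 in nerve. Both fell short of the low-count filter in all 3 comparisons. In CPM, Fcer1a had a lowest, median and highest level of 0, 0.663 and 0.959 in MPNST, 0.0497, 0.159 and 0.381 in neurofibroma and 0, 0.0540 and 0.224 in nerve. After TMM scaling, MPNST libraries 1 to 5 lay above every nerve library, and library 6 was at 0. On plain CPM, MPNST library 2 stood at 0.211, below nerve library 3 at 0.237. With no filter Fcer1a differed by 2.91 between MPNST and nerve (SE 0.97, edgeR adjusted p = 0.0449), where 23.8% of 34204 genes were called. It differed by 1.71 between MPNST and neurofibroma (SE 0.80, adjusted p = 0.143). Ms4a2 was ordered differently, with medians of 0.125 CPM in MPNST, 0.710 CPM in neurofibroma and 0.329 CPM in nerve; 4 of 6 MPNST libraries lay below every neurofibroma library. With no filter its log2 change was -1.20 for MPNST against neurofibroma (SE 0.73, adjusted p = 0.242).

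Hdc, histidine decarboxylase, the enzyme that makes histamine, had a lowest, median and highest level of 0.237, 1.73 and 3.35 CPM in MPNST, 0.681, 0.852 and 2.18 CPM in neurofibroma and 0.387, 1.19 and 3.29 CPM in nerve. The 3 groups overlapped. Its log2 changes were 0.77 for MPNST against neurofibroma (SE 0.53, edgeR adjusted p = 0.259), 0.33 for MPNST against nerve (SE 0.60, adjusted p = 0.677) and -0.42 for neurofibroma against nerve (SE 0.47, adjusted p = 0.565).

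Whether Kit and its ligand varied with mast cell content was described within each group by setting both against Cpa3 over the 6 libraries, on log2(CPM + 1). Kit showed no common direction: Pearson's r was -0.00 in MPNST (exact permutation p = 0.981), 0.54 in neurofibroma (p = 0.289) and -0.71 in nerve (p = 0.122). Spearman's rho for Kit was -0.31, 0.77 and -0.66 in these groups (exact p = 0.564, 0.103 and 0.175). Kitl and Cpa3 were highest in the same MPNST libraries, with r = 0.90 (exact p = 0.025) and rho = 0.89 (exact p = 0.0333) in MPNST. Adjusted over the 6 relations these were 0.15 and 0.2, so the relation did not pass the correction. Without libraries 2 and 6, the 2 farthest from the median of Cpa3, r was 0.93 over 4 libraries. Those 4 spanned only 4.47 to 5.34 CPM of Cpa3. Library 4 was the lowest of them in both genes, with Kitl at 41.4 CPM against 67.0 to 84.1 CPM. This value therefore cannot show whether the relation rests on few libraries. For Kitl, r was 0.40 in neurofibroma (exact p = 0.425; rho 0.26, p = 0.658) and 0.57 in nerve (exact p = 0.231; rho 0.66, p = 0.175). The ratio of Kit to Cpa3 counts, not corrected for length, was 0.590 to 57.0 in MPNST, 9.57 to 22.8 in neurofibroma and 9.02 to 110.5 in nerve. It was lowest in MPNST library 3, where Kit was at 3.15 CPM and Cpa3 at 5.34 CPM.

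**Figure D5:**
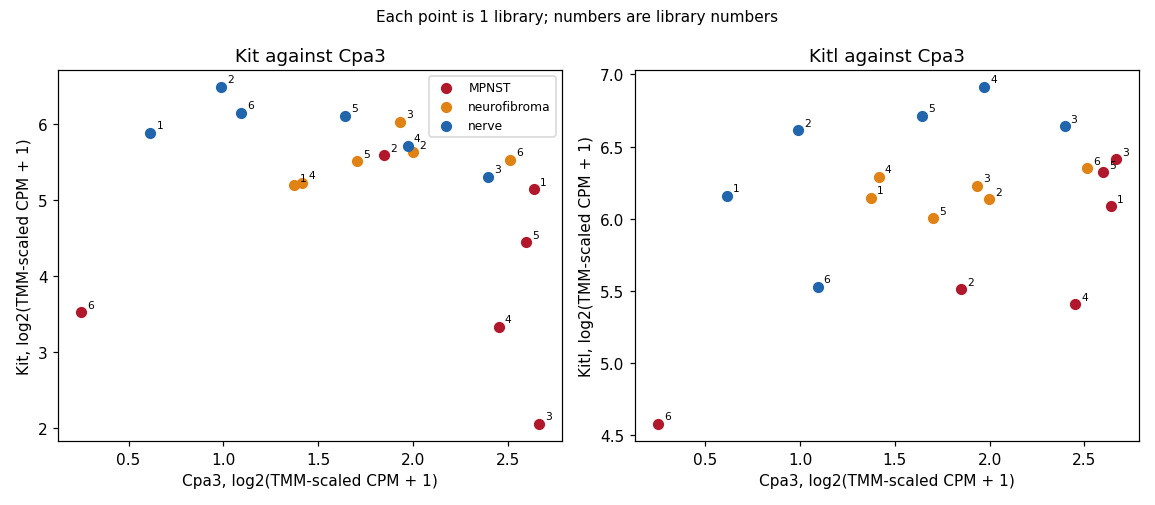
Kit (left) and Kitl (right) on the vertical axes against Cpa3 on the horizontal axes, all as log2(TMM-scaled CPM + 1), with 1 point per library, coloured by group and numbered by library. Kit spreads widely at high Cpa3 in MPNST (r = -0.00), whereas Kitl and Cpa3 rank the MPNST libraries alike (rho = 0.89).

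Over all 18 libraries, Tpsb2 and Cma1 were the genes whose log2 levels followed Cpa3 most closely among 15307 candidates (r = 0.90 and 0.89), and Mcpt4 was 6th (r = 0.83). The same measure placed Tpsab1 at rank 1356 (r = 0.56), Hdc at 2260 (r = 0.46), Kitl at 2927 (r = 0.40) and Kit at 10775 (r = -0.30). Taken as deviations from the group means, a measure chosen after seeing the data, Tpsb2 and Cma1 were again first and second, Mcpt4 was 12th and Kitl 90th (r = 0.75). The genes outside the list nearest to Cpa3 were Bloc1s4, Adam33, Trim21, C1s1, Prss23, S100a4, Casp12 and Zfp991 (r = 0.83 to 0.80). Of these 8, C1s1, a serine protease of the complement pathway, rose in MPNST against neurofibroma (log2 change 1.79, SE 0.66, edgeR adjusted p = 0.044) and so did the zinc finger gene Zfp991 (2.33, SE 0.76, 0.0275). Kit's nearest genes were Rasgef1b (r = 0.95), Smap2, Psen2 and Fuca2 (r = 0.90), and those of Kitl were Usp25 (r = 0.90), B3gnt8, Slc41a3 and Nek7 (r = 0.88). Without MPNST libraries 2, 3 and 6 the nearest of these fell to rank 96 for Kit and 27 for Kitl, and for Cpa3 Mcpt4 stood at rank 34 and the 8 outside genes at ranks 18 to 364, while Tpsb2 and Cma1 kept ranks 1 and 2. The 18 libraries share the differences between groups, so these values describe likeness and carry no test.

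Proteases of mucosal mast cells stood at or near 0. Mcpt1 and Mcpt9, proteases of mucosal mast cells, were listed at 0 in all 18 libraries, and Mcpt2 was at 0 in every neurofibroma and nerve library and at most 0.713 CPM in MPNST. Basophil markers were also scarce: 6 genes summed to 0.332 to 2.94 CPM in MPNST, 0.199 to 0.631 CPM in neurofibroma and 0.147 to 0.392 CPM in nerve. No gene of either list passed the low-count filter. Mrgprb2, the mast cell receptor for cationic peptides, which also did not pass, was detected in 5 of 6 MPNST, 6 of 6 neurofibroma and 4 of 6 nerve libraries, at up to 0.512, 0.340 and 0.137 CPM.

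A list of 32 other genes that mast cells use had 24 tested in MPNST against neurofibroma, of which 14 rose and 2 fell (median log2 change 1.79, against 0.22 over all genes), where 25.3% of all genes rose and 16.8% fell. Csf2rb, the shared chain of the IL-3 and GM-CSF receptors, rose by 3.52 (SE 0.57, edgeR adjusted p = 0.000666), Ptgs1 (cyclooxygenase 1) by 2.53 (SE 0.40, 0.000562), Cd200r1 by 3.88 (SE 0.78, 0.00234) and Ndst2, an enzyme of heparin synthesis, by 1.52 (SE 0.30, 0.00226). Cd55 fell by 3.49 (SE 0.75, adjusted p = 0.00348) and Gpr35 by 1.44 (SE 0.51, 0.0397). The call of Gpr35 was lost in 13 of 25 alternatives, among them limma-voom and the omission of MPNST libraries 2 and 6. Of the 16 calls, 13 held when any 1 library was left out. Against nerve, where 27.6% of all genes rose and 18.4% fell, 14 of 23 tested rose and 2 fell (Cd55 and Hs3st1); the smallest p was that of Cd63 (2.60, SE 0.46, adjusted p = 0.00103). Between neurofibroma and nerve, 2 of 21 rose, Cd63 (0.68, SE 0.17, adjusted p = 0.02) and Milr1 (1.49, SE 0.44, 0.0428), and neither held in every leave-one-out fit; 2 of 21 lies below the 13.9% over all genes.

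Many of these genes are used by other myeloid cells. Macrophage markers rose in 8 of 8 cases in MPNST against neurofibroma and against nerve, and their summed level was 147 to 2756 CPM in MPNST, 129.5 to 292 CPM in neurofibroma and 39.9 to 189 CPM in nerve. Ear2, an eosinophil ribonuclease also made by macrophages, rose by 7.72 against neurofibroma (the 1 eosinophil marker of 8 that was tested). The part of macrophages in the changes of the shared genes was not tested. Gata2, a transcription factor of mast cells, rose by 4.36 in MPNST against neurofibroma (SE 1.04, edgeR adjusted p = 0.00614), and its levels were ordered unlike those of the proteases. It stood at 8.21, 1.35, 7.02, 133, 36.4 and 228 CPM in MPNST libraries 1 to 6, highest in the library where the proteases were near 0. Il1rl1, the IL-33 receptor, rose by 2.16 (SE 0.67, adjusted p = 0.0215) and was at 0.237 CPM in library 6, against 3.07 to 13.5 CPM in the other MPNST libraries. Gata2 and Il1rl1 were chosen after their values were seen.

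Downstream of the receptors, a larger share of the IgE receptor signalling list than of the Kit signalling list was called higher. Of its 16 genes, 15 were tested in MPNST against neurofibroma and 12 rose (median 2.82), and 11 of 15 rose against nerve (median 3.60). The MPNST libraries were not alike: the list summed to 947, 311, 201, 870, 1176 and 135 CPM in libraries 1 to 6. It summed to 254 to 285 CPM in neurofibroma and 211 to 278 CPM in nerve, so MPNST libraries 3 and 6 lay below all of these. Libraries 1, 4 and 5 also held the highest summed macrophage markers of MPNST (1765, 1865 and 2756 CPM). Fcer1g, the signalling chain that FcεRI shares with other Fc receptors, stood at 7.91, 51.1 and 169 CPM as lowest, median and highest in MPNST, 6.11, 9.62 and 14.6 CPM in neurofibroma and 2.21, 4.31 and 7.96 CPM in nerve. It rose by 2.82 against neurofibroma (SE 0.60, edgeR adjusted p = 0.00341), and Syk, the kinase it recruits, by 3.32 (SE 0.62, 0.00149). Of Kit signalling genes, 33 of 33 were tested; 14 rose and 2 fell in MPNST against neurofibroma (median 0.69), and 18 rose and 3 fell against nerve (median 0.83). The 16 calls of 33 against neurofibroma lie near the 42% over all genes. Over all genes 25.3% rose and 16.8% fell against neurofibroma, and 27.6% rose and 18.4% fell against nerve. Sh2b2, an adaptor that binds activated Kit, rose by 3.18 against neurofibroma (SE 0.36, adjusted p = 7.28e-05), the phosphatase Ptpn6 by 3.31 (SE 0.61, 0.00143), the kinase Lyn by 2.72 (SE 0.50, 0.00144) and the phosphatase Inpp5d by 2.61 (SE 0.55, 0.00313). Sos1, a RAS exchange factor, fell by 0.99 (SE 0.29, adjusted p = 0.0166). Kit itself did not rise in any comparison.

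Between neurofibroma and nerve, 5 of 14 IgE receptor signalling genes rose (Lat2, Lat, Fcgr3, Fcer1g and Btk, log2 changes 0.95 to 1.32), and of 33 Kit signalling genes 4 rose (Lyn, Vav1, Fes and Stat5a) and 3 fell (Nf1, Sos1 and Plcg1). Over all genes 7.94% rose and 6% fell, so the Kit signalling counts lie near the background. None of these 12 calls held in every leave-one-out fit, and their highest adjusted p with 1 library left out was 0.0569 to 0.0984. Nf1, which the Cre deletes in the tumour mice, fell by 0.60 (SE 0.16, adjusted p = 0.0304). The summed macrophage markers given above overlapped between neurofibroma and nerve, but all 8 had log2 changes of 0.83 to 1.61, much like those of the IgE receptor genes. Of these 8, edgeR called 1 higher, DESeq2 6 and limma-voom 7; their part in the IgE receptor calls was not tested.

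Among factors that attract or feed mast cells, the chemokines Ccl11 and Ccl2 rose in neurofibroma against nerve, while Ccl5 and Cxcl12 did not pass the threshold (adjusted p = 0.25 and 0.847). Ccl11 (eotaxin) stood at 29.2, 63.7 and 90.1 CPM as lowest, median and highest in neurofibroma and at 1.33, 9.54 and 12.9 CPM in nerve, with no overlap. Such separation upward was seen in 4.69% of all genes. It rose by 2.81 (SE 0.43, edgeR adjusted p = 0.00302; 2.57 to 2.96 with any 1 library left out), and Ccl2, a monocyte and mast cell attractant, rose by 2.17 (SE 0.39, 0.00568). Vegfa fell by 0.41 (SE 0.12, 0.0339). In 1 fit of all 18 libraries, where the wider spread of MPNST is shared, 0.0116% of genes were called between neurofibroma and nerve, and Ccl11 and Ccl2 were not among them. In MPNST against neurofibroma, Ccl11 fell by 1.87 (SE 0.53, adjusted p = 0.0142) and Nrg1 by 3.91 (SE 0.97, 0.00742), while Tgfb1 rose by 2.44 (SE 0.43, 0.00117), Tslp by 1.79 (SE 0.38, 0.00321), Cxcl12 by 2.01 (SE 0.50, 0.00734), Ccl5 by 4.07 (SE 1.16, 0.015) and Vegfa by 1.12 (SE 0.34, 0.0198). The call of Vegfa was lost without MPNST libraries 2 and 6. Of 17 listed factors, 10 were tested there. Il3 and Il9, mast cell growth factors, were listed at 0 in all 18 libraries. Il33, the ligand of Il1rl1, did not differ past the threshold in any comparison (lowest adjusted p = 0.154).

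The receptors most like Kit are the class III receptor kinases; none of the 4 others was called lower in MPNST in the fits with all libraries. Of the receptors, Csf1r was called higher against neurofibroma, and Flt3 differed by -0.69 (SE 1.004, edgeR adjusted p = 0.602). No difference from Kit was tested. Of 11 receptors and ligands tested, 5 rose and 0 fell against neurofibroma (Csf1r and the ligands Flt3l, Pdgfb, Pdgfd and Csf1, log2 changes 1.24 to 1.79), where 25.3% of all genes rose, though none of the 5 held in every leave-one-out fit; 4 rose and 0 fell against nerve, where 27.6% of all genes rose. Between neurofibroma and nerve 4 rose (Pdgfa 0.80, Il34 0.81, Pdgfb 0.77 and Pdgfrb 0.53) and Flt3 fell by 0.38 (SE 0.11, edgeR adjusted p = 0.0404). Csf1r, the macrophage receptor for CSF1 and IL-34, had a median of 147 CPM in MPNST, 52.2 CPM in neurofibroma and 26.2 CPM in nerve. It rose by 1.75 in MPNST against neurofibroma (SE 0.60, adjusted p = 0.0331). Without MPNST libraries 2 and 6, 7 of 11 rose against neurofibroma and 9 of 11 against nerve, where 30.7% and 32.9% of all genes rose, and Kit fell in both.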

How the data were processed

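RNA of 6 MPNST, 6 neurofibroma and 6 nerve samples was extracted with a Qiagen RNeasy Plus Mini kit and made into stranded, poly(A)-selected KAPA libraries, per the labels' protocols. The authors deposited 1 table of gene-level estimated counts (expected counts, not whole numbers), made with Salmon 1.4.0 against GRCm39, per the submitters' processing notes, which also name FastQC and DESeq2; the annotation release is not given in the sources used here. Every column was matched to a sample by its title, and 0 columns had no sample. The 10 genes, the marker lists and the tests were chosen with earlier results of these data known.

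Counts were rounded, filtered with filterByExpr, TMM-normalised and tested for each pair of groups alone with edgeR 4.0.16 (quasi-likelihood test, R 4.3.3). P-values were adjusted by the Benjamini-Hochberg method over all genes tested and called below 0.05. Alternatives used DESeq2 1.42.0 and limma-voom (limma 3.58.1) with quality weights, other filters and scalings, and fewer libraries; those using the runs of columns, and likeness on deviations from group means, were chosen after seeing the data. Correlations used exact permutation tests (SciPy 1.17.1). The fitting code was tested on simulated data. Of each list, the text names the called genes with the smallest p in each direction, up to 4 for lists of mast cell and signalling genes; Fcer1g, Gata2, Il1rl1, Il33, Il3, Il9, Mrgprb2 and the fifth gene of a direction were chosen after their values were seen. Nearest genes were the 8 (Cpa3) or 4 (Kit, Kitl) with the highest Pearson r among those averaging at least 1 CPM in a group.

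The depth of 13885900 to 23652617 counts makes 3 counts, the limit that a count of 0 allows, worth 0.113 to 0.312 CPM in MPNST, 0.146 to 0.186 CPM in neurofibroma and 0.145 to 0.205 CPM in nerve; such limits cover counting error only. The labels name separate mice for MPNST; for the other groups p-values measure the spread between samples.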

Additional observations from a re-analysis of the deposited data

Results flagged for a closer look

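In 4 of 30 groups of 6 libraries, 1 library stood apart from the other 5 by Dixon's test on linear CPM. By chance the test picks out about 1 in 20 groups of normally distributed values. Levels at or near 0 need not be so distributed, so the 4 of 30 cannot be judged against that rate. Tpsab1 stood at 18.1 CPM in MPNST library 5, against 2.18 CPM in the next MPNST library. Tpsab1 stood at 2.91 CPM in nerve library 3, against 0.894 CPM in the next nerve library. Fcer1a stood at 0.224 CPM in nerve library 3, against 0.0684 CPM in the next. Ms4a2 stood at 1.09 CPM in MPNST library 4, against 0.320 CPM in the next. Nerve library 3, which accounts for 2 of the 4, was also the nerve library with the highest summed level of Cpa3, Mcpt4, Cma1 and Tpsb2, at 19.2 CPM, and of skeletal muscle markers, at 415 CPM. The part of either in these values was not tested.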

How the results depend on the processing

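Of 582 recomputed log2 changes over 24 gene and comparison pairs, 534 kept their direction and side of the threshold, 32 came to pass it, 12 no longer did and 4 reversed. All 12 losses were of Kit in MPNST against nerve, the 1 pair called with all libraries, among its 25 alternatives. The 534 are mostly uncalled pairs that stayed uncalled, so they do not measure how stable that call was. The reversals were Hdc in neurofibroma against nerve within the first run of columns (0.27), Tpsab1 in MPNST against neurofibroma without MPNST library 5 (-0.68; up to 1.56 with another library left out) and within the first run (-1.22), and Hdc in MPNST against nerve within the second run (-0.83). Called genes among those described here are counted next, with the share of all genes called in brackets. In MPNST against nerve they numbered 1 with all libraries (46%), 2 with no filter (23.8%) and 3 by DESeq2 (43%). They numbered 4 by limma-voom (63.4%), 2 in 1 fit of all 18 libraries (55.5%) and 0 at an adjusted p below 0.01 (28.3%). They numbered 4 without MPNST libraries 2 and 6 (60.7%) and 3 when library 3 was also omitted (62.4%). They numbered 0 omitting nerve library 6 with neurofibroma library 1 (43%), and 0 in each run of columns (29.8% and 6.97%). With any 1 library left out they numbered 0 to 3 (38.6% to 56.6%). In MPNST against neurofibroma they numbered 0 with all libraries (42%), 3 by limma-voom (58.9%) and 4 omitting libraries 2 and 6 (59.2%). They numbered 4 omitting 2, 3 and 6 (62.8%), and 0 to 4 with any 1 left out (34.8% to 54.3%). In neurofibroma against nerve they numbered 0 (13.9%), then 1 omitting nerve library 6 with neurofibroma library 1 (20.8%), and 0 to 1 with any 1 left out (6.9% to 23%). The correlation of Kit with Cpa3 in MPNST turned to 0.0403 with a pseudocount of 0.1 CPM and to 0.0073 without the 2 farthest libraries, and that of Kitl in neurofibroma to -0.309 without the 2 farthest. Over all genes, the calls in neurofibroma against nerve were 13.9% by edgeR, 19.4% by DESeq2, 24.5% by limma-voom and 0.0116% in 1 fit of all 18 libraries; the causes were not tested. Low counts limit Fcer1a and Ms4a2. No paired analysis was possible because the labels give no replicate numbers and the numbers used here follow accession order.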

Other observations

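Slc18a2, the vesicular monoamine transporter that loads histamine and serotonin into mast cell granules, stood at 357 CPM in MPNST library 6 and 107 CPM in nerve library 6, and at no more than 2.30 CPM in the other 16 libraries. MPNST library 6 and nerve library 6 also held the highest summed sympathoadrenal markers of their groups, at 4001 and 581 CPM. The 4 granule proteases summed to 0.474 CPM in MPNST library 6. The part of sympathoadrenal cells in the level of Slc18a2 was not tested. Enpp3, the basophil and mast cell surface protein CD203c, reached 158.7 CPM in MPNST library 2, the library with salivary gland transcripts. Mcpt8, a basophil protease, was highest in MPNST library 4, at 1.01 CPM, and this library also held the highest MPNST levels of Ms4a2 (1.09 CPM) and Mcpt2 (0.713 CPM). Slc18a2 and Enpp3 are among the genes called higher in MPNST than in neurofibroma (log2 change 5.39, SE 1.80, edgeR adjusted p = 0.0299, and 4.96, SE 1.28, adjusted p = 0.00904). The call of Slc18a2 is lost with 1 library left out (highest adjusted p = 0.0604). Its log2 change ran from -0.70 to 5.76 over the omissions of 1 library, so its direction also reversed. Mcpt8 did not pass the low-count filter. These genes were chosen after their values were seen.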
